A study of Macaca fascicularis with 11 samples.

Results

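The regions described here are runs of neighbouring cytosines whose mean methylation differed between 11 Cynomolgus macaques. Runs were built from the deposited methylation ratios of chromosomes 1 to 20 without 10 and 11, and a cluster on chromosome 20 (chr20:31039260-31047553) was left out. Listed cytosines of both strands were put in 1 order by position, and a new run began wherever the next cytosine was more than 1000 bp away. Members were selected on their measured values, as runs of 5 or more cytosines whose mean over cytosines had a standard deviation (SD, n - 1) over the 11 animals of at least 10 percentage points. This gave 131 variable runs of 3373 runs with 5 or more cytosines (3.88%), and they held 937 of the 27300 cytosines in such runs. Because the SD between animals chose the runs, its size is given as a description and was not tested.

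Each of the 11 libraries came from a quadriceps muscle biopsy of a different adult male Cynomolgus macaque, and the animals form 1 group with no treatment arm. DNA methylation was measured by reduced representation bisulfite sequencing (RRBS), in which DNA is cut with a restriction enzyme at CpG-rich sites, converted with bisulfite, which leaves methylated cytosines unchanged, and sequenced. The study's methods and the sample labels differ in the DNA input, the enzymes and the conversion kit of the libraries. Ratios are given as percent methylation with positions in the Cynomolgus genome of Yan et al., for which no gene annotation was used here. The read depth behind a ratio is unknown beyond the stated minimum coverage of 10, so no counting interval is given, and animals are called by the numbers that head their columns. The libraries were not alike in their low values: a ratio of exactly 0 made up 12.5% to 14.3% of the whole table in animals 2606, 2646, 5296 and 5272 and 22.0% to 28.4% in the other 7.

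In mammals, DNA methylation sits mostly on the cytosine of CpG dinucleotides and is copied to the new strand after each cell division, so that both strands of a CpG usually carry the same state. Most CpG islands at promoters are unmethylated and most CpGs elsewhere are methylated, and intermediate levels in a tissue arise where cells, or the alleles of a cell, differ. Regions whose level differs between individuals in the same tissue are known as variably methylated regions, and differences in DNA sequence, in cell composition and in early development are among their known sources in mammals.

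The variable runs covered most of the methylation scale. Their mean level lay between 7.09% and 85.7%, its median was 43.5%, and 31 runs had a mean below 30%, 81 a mean of 30% to 70% and 19 a mean above 70%. Intermediate runs were thus the largest class among them, whereas the other 3242 runs were mostly low (2138) or high (838). Of all 347 intermediate runs 23.3% were variable, compared with 1.43% of 2169 low and 2.22% of 857 high runs. A mean near either end of the scale leaves little room for a spread, so these shares are partly set by the bound on the SD. Each of the 18 chromosomes held variable runs, from 1.23% of 163 runs on chromosome 8 to 6.99% of 143 on chromosome 12.

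**Figure D1:**
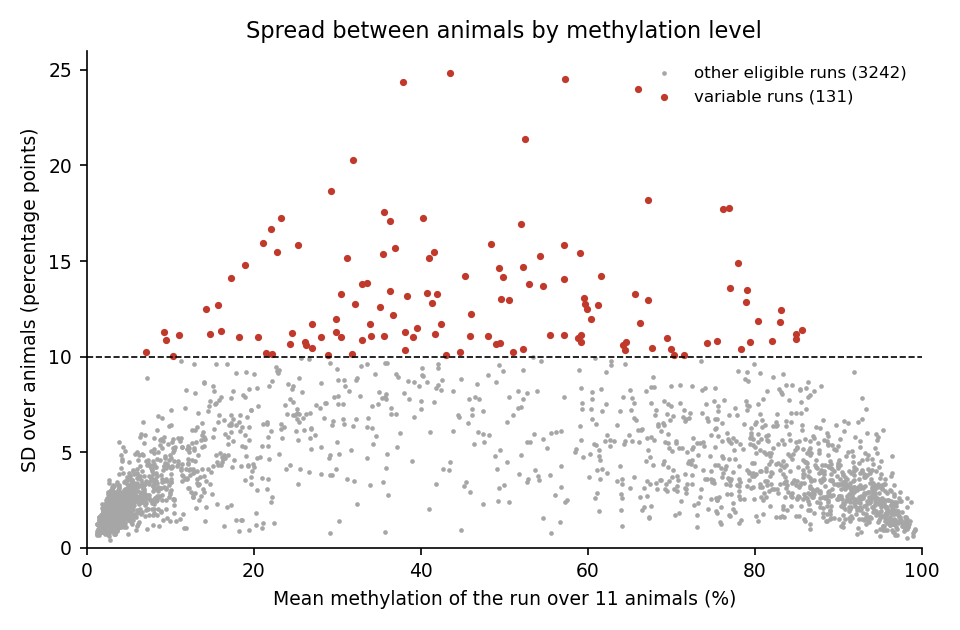
Each point is a run of 5 or more cytosines, plotted by its mean methylation over 11 animals (%) and its SD over animals (percentage points), with the dashed line at the bound of 10. The 131 variable runs lie above the line with means from 7.09% to 85.7%, and the other 3242 runs had a median SD of 2.20.

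The variable runs were short. Their median length was 6 cytosines and 41 bp, against 7 cytosines and 77.5 bp in the 266 intermediate runs that were not variable. Runs of exactly 5 cytosines made up 45.8% of the variable and 28.6% of the other intermediate runs. Cytosines of 1 strand only made up 77.1% of the variable runs (101 runs) and 47.7% of the other intermediate runs (127 runs). Among the 81 intermediate variable runs alone this share was 76.5%, and among all 3242 runs that were not variable it was 66.4%. A mean over fewer cytosines can carry more counting error, but cytosines read from the same sequenced fragments share this error, and averaging them then reduces it less. The part of counting error in passing the bound was not tested. For scale, a single cytosine at an even mix of methylated and unmethylated reads has a counting SD of 15.8 percentage points at 10 reads. The counting SD of a run mean is not known, since it depends on the depth and on how far its cytosines share reads.

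Between animals, the SD of a variable run ranged from 10.1 to 24.8 percentage points with a median of 11.98. It was below 12 in 66 runs, 15 or more in 28 and 20 or more in 6. The distance from the lowest to the highest animal was 27.5 to 92.0 percentage points (median 39.1) and was 50 or more in 22 runs. In 11 runs at least 1 animal lay under 10% while another lay over 50%. Of the 131 runs, 60 kept an SD of at least 10 whichever animal was left out, and the other 71 fell below it without some 1 animal.

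The 10 runs with the largest SD show how the animals were arranged. At chr2:986843-986862, the run with the largest SD (24.8, 5 cytosines), methylation was 6.86% in the lowest animal, 42.6% in the median and 98.8% in the highest. Animal 5272 stood alone at the top of it, 38.5 percentage points above the next animal, and animal 2666 was lowest. At chr2:74763720-74763735 (SD 24.5) the values ran from 23.3% through a median of 48.8% to 90.2%, in a different order, with 2666, 2654, 5295 and 2606 all above 80%. The first 2 runs thus had different profiles, although both lie on chromosome 2.

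At chr16:30210525-30210557 (SD 24.4) methylation was 4.70% in the lowest animal, 42.7% in the median and 87.7% in the highest, and animal 2595 stood 32.3 percentage points above the rest. At chr5:180287020-180287056 (SD 24.0) it ranged from 28.8% to 95.2% with a median of 71.2%. Here 4 animals (5296, 2624, 2646 and 2606) lay between 28.8% and 48.1%, and the other 7 lay between 70.9% and 95.2%, with none in the 22.7 percentage points between them. Of the 4 low animals, 3 (5296, 2646 and 2606) are among the 4 libraries with few exact zeros, and without those 4 the SD was 21.1 over the other 7 animals. Of the profiles of the 10 runs whose largest gap did not set a single animal apart, this one had the widest gap.

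Single animals stood apart below the rest in other runs of this group. At chr9:2500170-2500203 (SD 21.4) animal 2624 had 2.76% methylation, and the other 10 animals had 29.3% to 75.1%. At chr13:124631076-124631105 (SD 18.2) animal 5295 had 20.5%, and the others had 53.3% to 84.8%. Without animal 5295 the SD of that run fell from 18.2 to 10.0. The other 9 runs kept an SD of 13.1 or more without any 1 animal.

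In 3 of the remaining 4 runs the largest gap also set a single animal apart. At chr17:95329823-95329852 (SD 20.3) methylation was 4.29% in the lowest animal, 27.4% in the median and 69.8% in the highest, which was 5272, 13.2 percentage points above the next. At chr19:23826990-23827906 (SD 18.7), the longest of the variable runs at 917 bp, it was 4.26%, 29.4% and 65.5%, with 2595 alone at the top by 24.4 percentage points. Most animals were high at chr15:1784705-1784724 (SD 17.8), where the median was 87.0% and 2606 lay lowest, at 38.5%, by 18.9 percentage points. At chr15:105834896-105834952 (SD 17.7) the animals lay between 48.6% and 98.9% with a median of 83.1%.

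**Figure D2:**
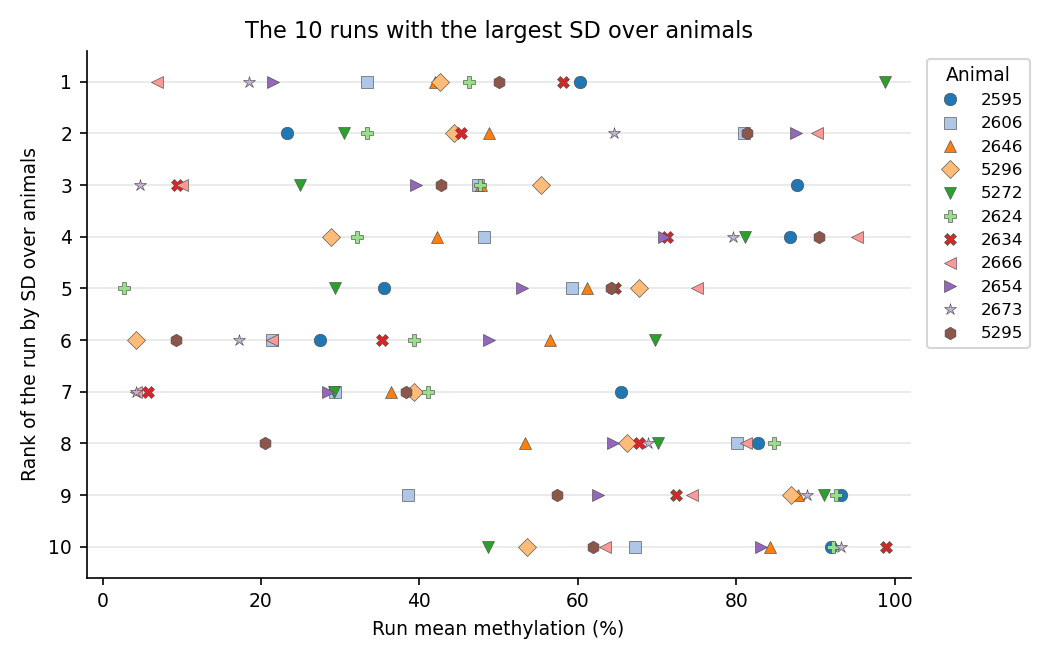
Mean methylation (%) of the 10 runs with the largest SD over animals, ranked by SD from the top, with 1 symbol for each of the 11 animals. The first run spans 6.86% to 98.8%, and in the eighth animal 5295 lies at 20.5% while the other animals lie between 53.3% and 84.8%.

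Over all variable runs the shape of the profile was described by the largest gap between neighbouring animals in the sorted values. The smaller side of this gap held 1 animal in 59 runs, 2 animals in 26, 3 in 23, 4 in 13 and 5 in 10. A single animal lay above the rest in 32 of the 59 runs and below the rest in 27, and the gap was 20 percentage points or more in 16. The gap was below 10 in 37 of the 131 runs, whose animals were spread without a clear break. Of the 59 runs that set 1 animal apart 11 were among these, and in the other 48 the gap was 10 or more. With a gap of 10 or more the smaller side held 2 animals in 19 runs, 3 in 11, 4 in 11 and 5 in 5. The split with 1 animal apart was thus also the most frequent among them. No such counts are given for runs that were not variable. Whether this split is particular to the variable runs was not tested.

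No animal was high or low throughout. The mean over the 131 runs was 46.2% ± 1.20 (SD, n = 11 animals) and ranged from 44.5% to 48.1%. Every animal was the highest in at least 6 runs and the lowest in at least 6. With ties counted for each animal, 2595 and 2666 were most often the highest (19 runs each), and animal 5295 was most often the lowest (23 runs) and most often the one set apart (11 runs, in 9 of them below the rest). Averaged over runs, an animal's distance from the mean of the rest ranged from 9.48 percentage points in animal 2646 to 13.3 in animal 2666. Without the 4 animals with few exact zeros, an alternative chosen after seeing the data, 112 of the 131 runs kept an SD of at least 10 over the other 7 animals.

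**Figure D3:**
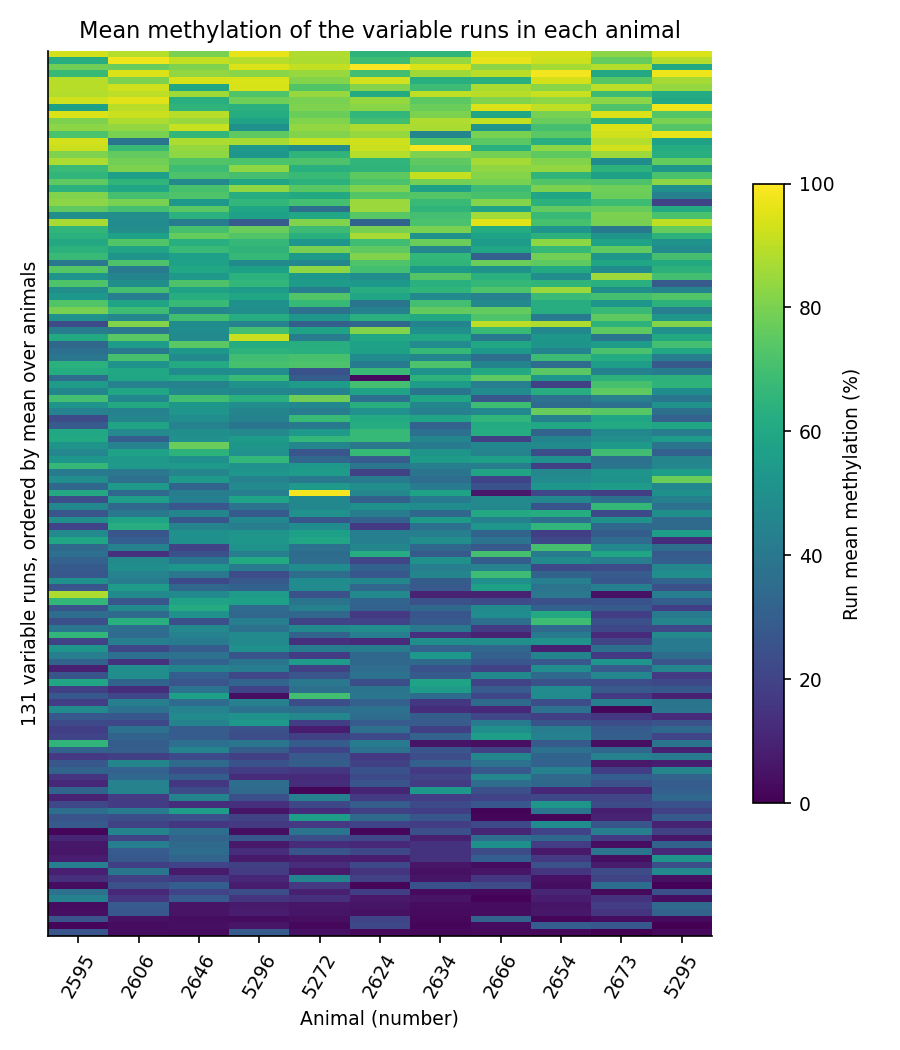
Colour gives the mean methylation (%) of each of the 131 variable runs (vertical axis, ordered by mean over animals) in each of the 11 animals (horizontal axis). High and low values are scattered over the columns, whose means lie between 44.5% and 48.1%.

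Profiles were rarely shared between runs. Of the 8515 pairs of variable runs, 17 had a Pearson r of 0.9 or more over the 11 animals and 0 had an r of -0.9 or less. These correlations are descriptions, since the runs share the 11 libraries and were chosen for their spread over them. Of the 17 pairs, 10 joined 5 runs that followed the chromosome 20 cluster left out by the rule, whose 272 cytosines ranged from 4.24% to 65.2% between animals. The 5 runs, at r of 0.9 or more with the cluster, were chr16:30210525-30210557, chr19:23826990-23827906, chr14:62463342-62463361, chr9:46999411-46999436 and chr19:64847641-64847749. All 5 had animal 2595 highest. Without that animal 4 of them had an r of 0.9 or more and 3 had an SD of at least 10, and the SD of the runs on chromosome 14 (8.68) and at chr19:64847641-64847749 (7.77) fell below the bound. An r of 0.9 or more with the cluster was also found in 9 runs that were not variable, so that 14 of all 3373 runs (0.415%) had it. For the variable runs as a whole the r with the cluster had a median of -0.0386, so the cluster's profile was not a common feature of them. The run at chr7:35749092-35749490 made up 2 more pairs with 2 of the 5 runs (r = 0.907 and 0.923). Its r with the cluster was 0.827 and rose to 0.916 without animal 2595, so that 4 variable runs then met both bounds. Of the remaining pairs, chr19:1781735-1781765 and chr2:986843-986862 (r = 0.934) both had animal 5272 highest and 2666 lowest.

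Variable runs close to each other were few. Of 6 pairs of neighbouring variable runs within 100 kb, those on chromosome 1 had r of 0.997 and 0.974, and the other 4 had r of -0.142 to 0.442, beside the 17 of 8515 pairs at 0.9 or more over all variable runs. At chr7:86617487-86617560 and chr7:86622880-86622902, which lie 5320 bp apart, animal 2654 had 66.0% in the first and 37.6% in the second, and the r was -0.142. Listed cytosines outside a variable run but within 10 kb of it existed for 48 runs, and their mean had a median r of 0.0796 with the run. The same value at 91 other intermediate runs was 0.0664. An r of 0.7 or more was found for 5 of the 48 runs and for 2 of the 91. The highest r among the 91 was 0.824, equal to that of the variable run starting at chr9:133525505. The same pair of neighbours may therefore be counted in both sets. Of the 5, 3 belong to the chromosome 1 locus, where the neighbours are cytosines of the other variable runs, and among the 43 variable runs with no other variable run near them 2 had this r, singled out after their values had been seen. For the run starting at chr9:133525505 it was 0.824 with 10 neighbouring cytosines, the nearest 1149 bp away, and for that starting at chr19:1045934 it was 0.770 with 9.

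Among the runs kept by the rule, those on chromosome 1 formed the variable locus with the most cytosines. The 3 runs between chr1:142843032 and chr1:142851026 held 49, 45 and 12 cytosines, 106 in 7995 bp, and the first of them had the most cytosines of all variable runs. Over these cytosines methylation was 3.13% to 8.53% in 8 animals, 17.3% in 2673, 29.1% in 2606 and 34.7% in 5295. Animals 5295 and 2606, singled out after the values had been seen, were both above all of the 8 low animals at 100 of the 106 cytosines. At the other 6 they were not, and between the first 2 runs 5763 bp held no listed cytosine. The plus and minus strands gave similar profiles, with r between strands of 0.995, 0.995 and 0.979 in the 3 runs. Without animal 5295 the SD fell to 7.52, 8.28 and 10.56, and without 2606 to 8.83, 9.94 and 12.8. Leaving out either of these libraries alone thus took the first 2 runs below the bound of 10. The first run still met the bound without the 4 animals with few exact zeros, which include 2606.

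**Figure D4:**
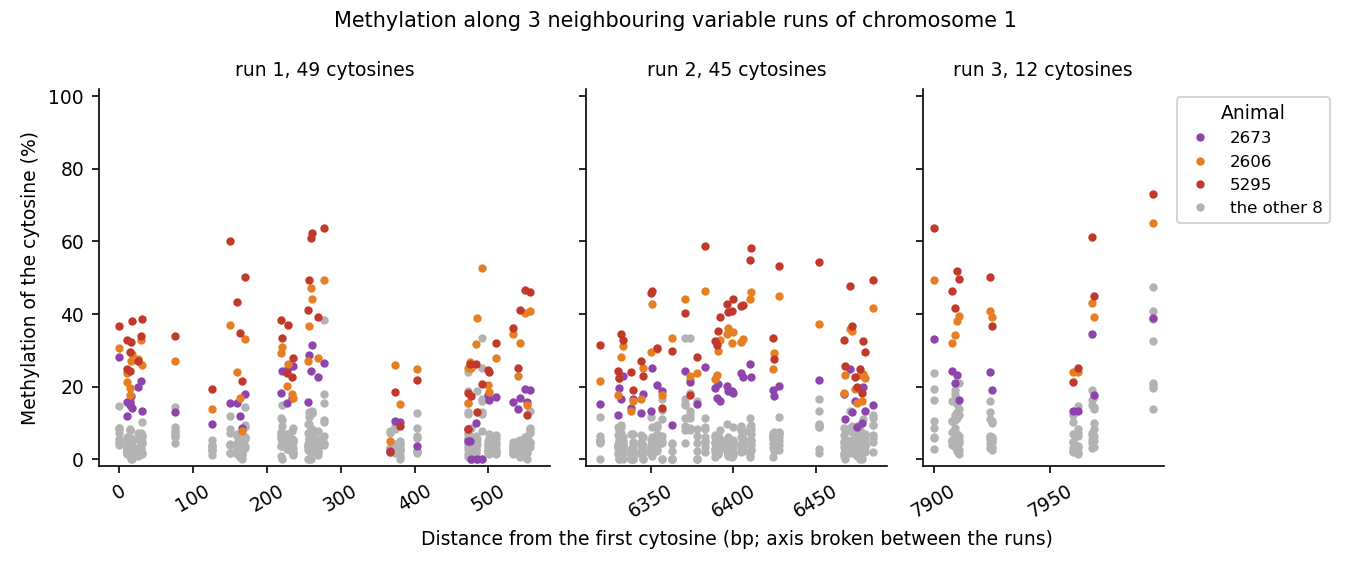
Methylation (%) of each of 106 cytosines by distance from the first (bp, with its own scale in each of the 3 panels), coloured for animals 5295, 2606 and 2673 and grey for the other 8. Over the locus the grey animals average 3.13% to 8.53%, and 2606 and 5295 average 29.1% and 34.7%.

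A like pattern on a smaller scale was seen at chr9:45421854-45422151, a run of 18 cytosines that was also singled out after its values had been seen. In it 8 animals lay between 1.67% and 4.93%, and animals 2624, 2595 and 2666 had 20.2%, 25.5% and 31.7%. Without animal 2666 its SD was 8.40 and without 2595 it was 9.98. Its strands had an r of 0.995, and its cytosines left and right of a gap of 143 bp had an r of 0.942.

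Inside the runs, uniformity was measured for each cytosine as the r over animals between it and the mean of the other cytosines of its run. The median over the cytosines of a run was 0.487 to 0.997 in the variable runs, with a median over runs of 0.879, and it was 0.9 or more in 55 runs and below 0.7 in 13. In the other intermediate runs its median was 0.441, and 9 of 266 reached 0.9. The choice of runs by the spread of their mean favours cytosines that move together, so this contrast is a description. Near cytosines of a strand also share reads. The variable runs were shorter (median 41 bp against 77.5 bp) and more often of 1 strand only (77.1% against 47.7%). The part of shared reads in these r was not tested. Of the 937 cytosines 802 (85.6%) had an SD over animals of at least 10 on their own, and in 78 runs every cytosine did. The same share was 44.7% of the cytosines in the other intermediate runs and 11.8% of those in all runs that were not variable. The cytosines of a run lay farther apart in level in the other intermediate runs. Their SD within an animal was 23.2 percentage points, against 12.9 in the 81 intermediate variable runs. The part of this difference in the contrasts of r and of SD was not tested.

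The 3 runs with the highest median r were chr2:986843-986862 (0.997), chr2:74763720-74763735 (0.995) and chr19:1781735-1781765 (0.989). In the last of these methylation was 1.28% in the lowest animal, 24.4% in the median and 56.0% in the highest. The 3 runs with the lowest median r were chr16:30087860-30087884 (0.487), chr18:52607479-52607506 (0.530) and chr16:17644745-17644803 (0.561). At the first of them the animals had 5.99% to 38.5%, while only 3 of its 6 cytosines had an SD of at least 10 on their own and 3 had a negative r with the rest. The lowest of these r, -0.485, was that of a cytosine that stayed at 0% to 7.14%.

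Cytosines that ran against their own run were few. In 19 variable runs at least 1 cytosine had a negative r, 22 of 937 cytosines in all. In the other intermediate runs 389 of 2390 cytosines, in 157 of 266 runs, had one, and the choice of runs by the spread of their mean disfavours such cytosines. The 2 strongest cases were cytosines that hardly varied. The one at chr17:78398599 (r = -0.886) was 100% methylated in 10 animals and 91.7% in the other. The one at chr9:46999436 (r = -0.859) had a mean of 5.92% and a highest value of 11.7%, in a run that reached 66.3%. The one at chr15:36411741 (r = -0.234) varied widely, with an SD of 17.9 and values from 45.5% to 100%.

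On the same strand, 2 cytosines of a run were less alike when farther apart. For cytosines of the same strand up to 20 bp apart, the median over variable runs of the r between them was 0.835 (131 runs), and it was 0.774 at 20 to 50 bp (114 runs), 0.705 at 50 to 100 bp (47 runs) and 0.486 beyond 100 bp (16 runs). These sets of runs differ. Within the same variable runs, the value at 20 to 50 bp was lower than that up to 20 bp in 75 of 114. It was lower in 36 of 47 at 50 to 100 bp and in 16 of 16 beyond 100 bp. The other intermediate runs also showed this fall, in 162 of 237 runs at 20 to 50 bp and 62 of 69 beyond 100 bp. Most of them showed it at 50 to 100 bp too, so the fall was not particular to the variable runs. For the 2 cytosines of the same CpG, which lie on opposite strands and face each other, the median over variable runs was 0.592 (27 runs). For cytosines of opposite strands and different CpGs up to 50 bp apart it was 0.664 (27 runs). In the other intermediate runs the value for the same CpG was 0.116 (89 runs), that for different CpGs of opposite strands was 0.0858 (103 runs), and that for cytosines of the same strand up to 20 bp apart was 0.437 (266 runs). Facing cytosines are covered by different reads, whereas near cytosines of a strand share theirs, and the part of shared reads in the same-strand values was not tested.

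**Figure D5:**
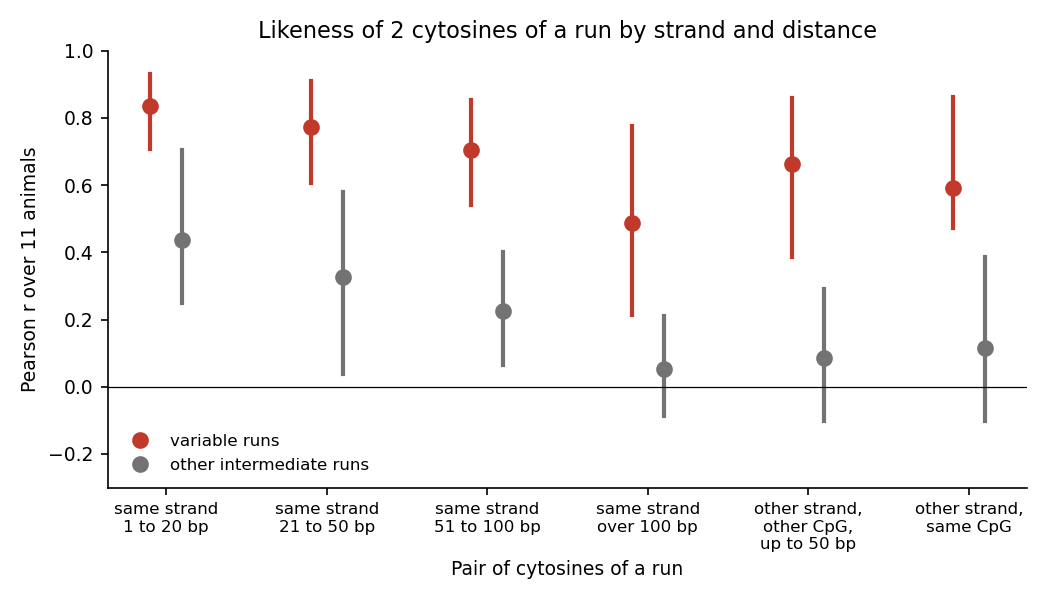
Pearson r over 11 animals between 2 cytosines of a run by strand and distance, as the median (point) and quartiles (line) over runs of the median within each run. On the same strand the points go from 0.835 up to 20 bp to 0.486 beyond 100 bp in variable runs and from 0.437 to 0.0536 in other intermediate runs, and for the same CpG they lie at 0.592 and 0.116.

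Where both strands were listed with at least 2 cytosines each, the means of the 2 strands were compared over animals. In 28 such variable runs the r between the strand means had a median of 0.733, with 8 runs at 0.9 or more and 2 below 0, against a median of 0.143 in 126 other intermediate runs. Both strands had an SD of at least 10 in 18 of the 28 and in 7 of the 126. The rule took the mean over both strands, which favours strands that move together, so these values are descriptions too. Strand and distance cannot be told apart in variable runs whose strands were the 2 sides of a gap of 100 bp or more. They were chr2:33937687-33937934 (r = -0.0331, gap 154 bp), chr3:1889498-1889659 (0.123, 136 bp) and chr7:35749092-35749490 (0.273, 356 bp). These runs also enter the comparison of the sides of gaps below. At chr5:180287020-180287056 the strands had an r of 0.951 and SDs of 25.9 and 22.7, and at chr13:124631076-124631105, where 5295 was low, the r was 0.930.

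Other runs were variable in part only, and the following were singled out after their values had been seen. At chr7:35749092-35749490 the plus-strand cytosines had a mean of 3.82% with an SD of 2.38, and the minus-strand cytosines, 356 bp away, had a mean of 58.6% with an SD of 29.6. At chr5:1149470-1149901 the SD was 4.44 on one side of a gap of 409 bp and 24.7 on the other. At chr1:216685569-216685588 the strands had means of 90.9% and 51.4%, SDs of 4.97 and 16.4 and an r of -0.163. In 10 variable runs with at least 2 cytosines on each side of a gap of 100 bp or more, the r between the sides had a median of 0.492. The same median was 0.0926 in 68 other intermediate runs. Both sides varied in some of the 10 variable runs, as at chr19:23826990-23827906, with SDs of 17.8 and 20.5 and an r of 0.957.

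The spread of single cytosines around their run was compared within each animal between the 81 intermediate variable runs and the 266 other intermediate runs. The members were selected on the same ratios, so these differences are descriptions and no p is given. After the mean of each cytosine and the profile of the run had been subtracted, the residual SD of an animal was 7.23 ± 0.432 percentage points (SD, n = 11 animals) in variable runs and 7.87 ± 0.525 in the others. The difference was -0.643 ± 0.472 and was negative in 10 of 11 animals of the 1 group. Among runs of 1 strand only, chosen after seeing the data because strand makeup differed, it was -0.386 and negative in 8 of 11 animals, and with run medians in place of means it was -0.150. The difference was larger in size with an SD bound of 12 (-0.941) and without ratios of exactly 0 or 1 (-0.870). The scatter around the run's own profile was thus of similar size in both sets, and mostly a little smaller in the variable runs.

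Without subtraction, the SD over the cytosines of a run within an animal was 12.9 ± 0.448 percentage points in the variable and 23.2 ± 0.447 in the other intermediate runs (n = 11 animals). The difference was -10.4 ± 0.481, and it was -2.97 with run medians and -1.52 without ratios of exactly 0 or 1. How much of this difference the choice of runs by their SD between animals sets was not tested.

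Near the SD bound, the 3 runs on either side of it overlapped in how uniform they were inside. Just inside it were chr1:142843032-142843588 (10.05), chr20:53851246-53851262 (10.06) and chr15:98649159-98649203 (10.07), and just outside it were chr16:9063081-9063146 (9.96), chr8:39537430-39537522 (9.94) and chr6:68120204-68120238 (9.93). The median r of a cytosine with the rest was 0.966, 0.792 and 0.588 in the first 3 runs and 0.858, 0.845 and 0.703 in the last 3. The SD of the run on chromosome 6 was 16.7 taken as the median over its 11 cytosines, 7.87 without ratios of exactly 0 or 1, 7.09 without the 4 animals with few zeros and 7.50 without animal 2646.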

How the data were processed

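The authors trimmed the reads, aligned them with RRBSMAP to the Cynomolgus genome of Yan et al., kept CpGs with a coverage of at least 10 and deposited 1 methylation ratio per cytosine and animal for 61399 cytosines. These were used without normalization, as percent. The columns carry animal numbers that no label holds, so they were used as 11 animals of 1 group. The rule took in 42341 cytosines on 18 chromosomes in 9616 runs of any size. Intermediate means a mean over animals of 30% to 70%. Permutation tests over animals were planned and run for both comparisons of spread within runs, but no p is given, since the members were selected on the same ratios. Runs named by rule were the 10 with the largest SD, the 3 highest and 3 lowest in median r, 3 on each side of the bound and the run with the most cytosines. The members and lists were chosen with earlier results of these data known. Calculations were tested on simulated data. Alternatives changed the gap, size, bound, strands, centring, the mean to a median, exact 0 or 1 ratios, the classes, and the animals used. The software was pandas 2.3.3, matplotlib 3.10.9, numpy 2.4.6 and scipy 1.17.1 under Python 3.11.15. No genome sequence was used here.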

Additional observations from a re-analysis of the deposited data

How the results depend on the processing

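When the animals were left out one at a time, the number of variable runs was 120 to 137, the median r of a cytosine with its run 0.871 to 0.890, and runs with 1 animal apart 51 to 71. Runs like the chromosome 20 cluster were then 4 to 6, the residual difference -0.775 to -0.512 and the unsubtracted difference -10.8 to -10.1. The number of variable runs was 18 of 785 runs (2.29%) with at least 10 cytosines. Of 3373 runs it was 248 (7.35%) with an SD bound of 8 points, 65 (1.93%) with a bound of 12 and 237 (7.03%) with run medians. Without ratios of exactly 0 or 1 it was 232 of 2795 (8.30%). Under the same settings in that order, runs with 1 animal apart were 6, 110, 30, 107 and 117. The median r was 0.792 with the bound of 8, 0.923 with 12, 0.768 with run medians and 0.743 without exact 0 or 1. Runs like the cluster were 2 with at least 10 cytosines, 3 with the bound of 12, 9 with runs made within 1 strand and 8 without the 4 animals with few zeros. The residual difference was negative in all 25 alternatives. It was smallest with run medians (-0.150), with -0.386 on 1 strand only, and largest in size with the bound of 12 (-0.941). The unsubtracted difference was negative in all 25, from -11.8 with at least 10 cytosines to -2.97 with run medians and -1.52 without exact 0 or 1. Fewer or more runs follow from the bounds and sizes themselves, and the other causes were not tested. Leaving out the 4 animals, runs of 1 strand only and runs of exactly 5 cytosines were chosen after seeing the data. Depth limits every ratio to an unknown extent, and the 11 animals allow no comparison between groups.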
